A study of Mus musculus with 4 samples.

Results

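The 34 genes described here encode enzymes that burn pyruvate and fatty acids in the mitochondrion, together with the cytosolic forms Idh1 and Mdh1. They were taken as a fixed list of symbols, and all 34 were found among the 12020 genes with usable counts in the deposited table. By role, 4 belong to the pyruvate dehydrogenase complex, 18 to the tricarboxylic acid (TCA) cycle and 12 to fatty acid beta oxidation. RNA sequencing measured them in NKT (natural killer T) cells, lymphocytes whose receptor sees lipids held by CD1d. Both groups came from the same source: liver, per the labels, of Va14 Tg.cxcr6gfp/+ mice of strain C57BL/6, aged 10 to 12 weeks, sorted as GFPhi cells. The mice thus carry a rearranged NKT receptor transgene and a reporter at the Cxcr6 locus, and resting and stimulated cells share both. In the resting group (2 libraries) the purified cells were left unstimulated, and in the tetramer group (2 libraries) they were kept on plates coated with mCD1d-PBS57 tetramers, which engage the receptor. The duration of stimulation, and whether libraries came from separate or pooled mice, was not given in the sources used here. Livers or spleens are named in the protocol as sources of cells.

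Pyruvate dehydrogenase turns pyruvate from glycolysis into acetyl-CoA, and beta oxidation cuts acetyl-CoA from fatty acids that carnitine carries into the mitochondrion. The TCA cycle oxidises acetyl-CoA and hands electrons to the respiratory chain, and its intermediates also leave the cycle for the synthesis of lipids, nucleotides and amino acids. Lymphocytes at rest are known to rely on oxidation of pyruvate and fatty acids, and activated lymphocytes are known to raise glycolysis while still using mitochondria for building blocks.

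Read totals were between 4168438 and 5495521 per library. Levels are in CPM, read counts scaled to a common library size, after TMM scaling, which equalises libraries on the bulk of their genes. They compare libraries for 1 gene and are not corrected for transcript length. Log2 fold changes compare tetramer with resting cells and carry a standard error (SE). A gene was called higher or lower at a Benjamini-Hochberg adjusted p under 0.05 in edgeR's quasi-likelihood test over all 11312 genes tested, and all 34 members passed the expression filter. Libraries carry the column numbers 4 and 5 of the deposited table. Across genes, themselves not independent, Pearson's r of log2 CPM was lowest between tetramer library 4 and the resting libraries (0.787 and 0.790), against 0.836 and 0.838 for tetramer library 5. All 12 NKT and T cell markers were present, with summed levels of 4192 to 4590 CPM at rest and 4049 to 4762 CPM after stimulation. Cxcr6 (1617 and 1102 CPM at rest, 414 and 718 CPM after stimulation) and Klrb1c, the NK1.1 antigen (114 and 174 against 2.87 and 13.6 CPM), were the 2 of them called lower. Markers of other cells were also present: 5 of 6 islet genes summed to 255 and 937 CPM at rest and 226 and 414 CPM after stimulation. Summed erythroid markers (3 of 4) lay at 89.9 and 246 CPM at rest and 19.2 and 45.9 CPM after stimulation. Those of B cells (5 of 6) lay at 48.3 and 71.2 against 26.6 and 32.8 CPM, and of myeloid cells (5 of 10) at 25.9 and 32.8 against 10.6 and 14.0 CPM. Hepatocyte markers (4 of 9) summed to 64.0 and 73.9 against 50.8 and 35 CPM. Of the endothelial markers only Pecam1 was present (1 of 5), at 75.0 and 28.8 against 10.2 and 15.8 CPM. Their part in the results below was not tested. In such bulk samples fewer cells of a type and less RNA per cell cannot be told apart.

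After stimulation, transcripts of 5 TCA cycle enzymes rose 2.10-fold to 2.64-fold, while the pyruvate dehydrogenase complex had 0 called members (edgeR, and likewise DESeq2 and limma-voom, with 1 of 4 at an unadjusted p under 0.05) and beta oxidation had 1 member higher and 1 lower. The TCA cycle genes that rose were Idh3g, Dlst, Suclg1, Sdhb and Mdh2. In beta oxidation Cpt2 rose 4.48-fold and Hadhb fell to 0.500 of its resting level. Over the 34 members 6 (17.6%) were called higher, where 14.3% of all genes tested were, and 1 (2.94%) was called lower, where 12.1% of all genes were. The share of members called higher was thus near that of all genes. Within the TCA cycle it was 27.8%, and within beta oxidation 8.33%. Median log2 fold changes were 0.36 for pyruvate dehydrogenase, 0.50 for the TCA cycle and 0.26 for beta oxidation, beside -0.06 for all genes tested.

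**Figure D1:**
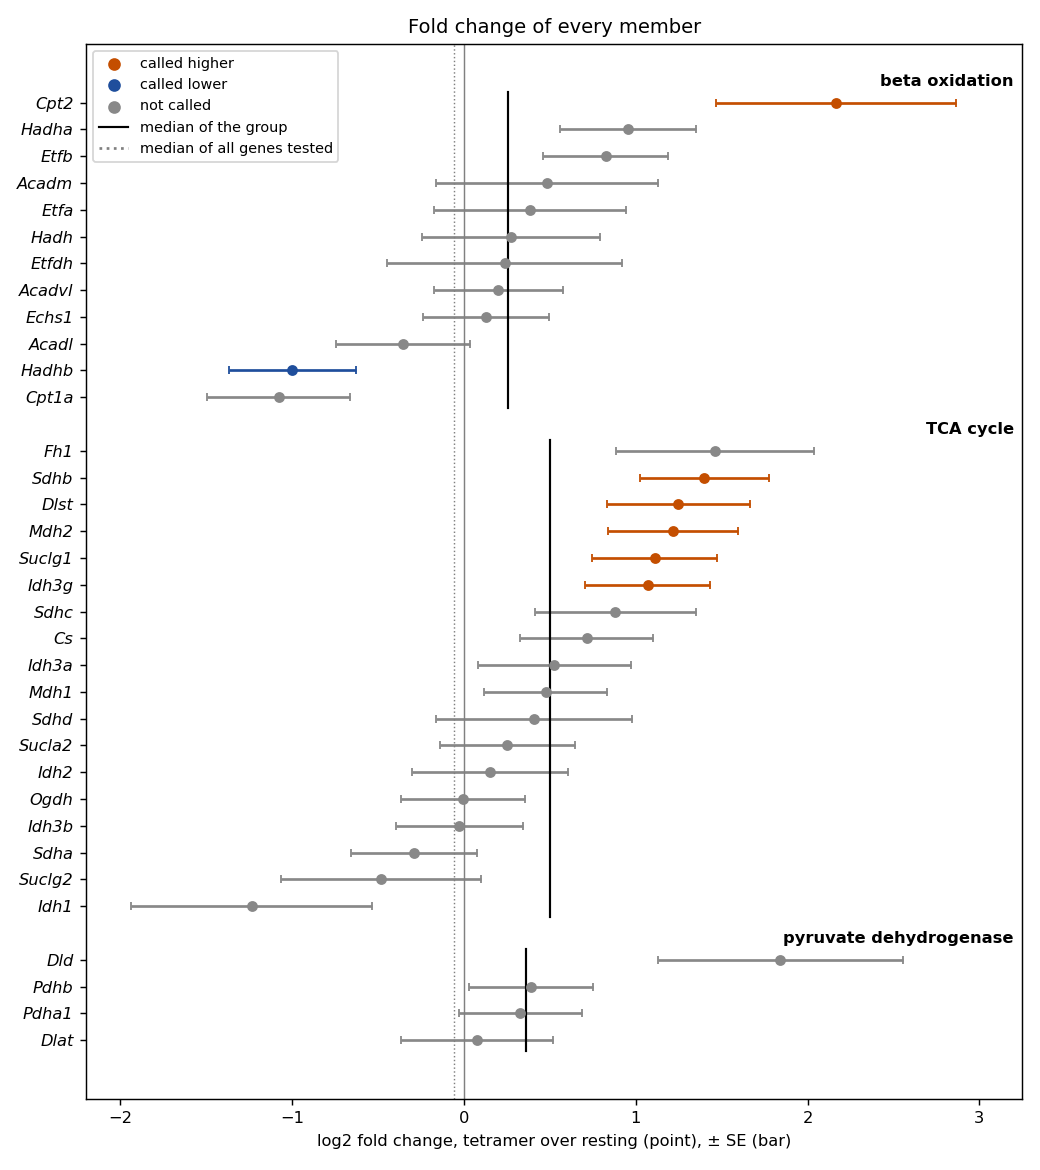
Log2 fold change (tetramer over resting, point) with its SE (bar) for all 34 members, in their 3 groups, with a black line at each group's median and a dotted line at the median of all genes tested (-0.06). Orange marks the 6 members called higher, which lie between 1.07 and 2.16, blue the 1 called lower at -1.0, and grey the 27 not called.

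Both tetramer libraries lay above both resting libraries for 15 members (44.1%) and below them for 5 (14.7%), where 31.6% and 33.7% of all genes tested did so. In the TCA cycle 8 of 18 members lay wholly above and 2 wholly below, and in beta oxidation 4 of 12 lay above and 3 below. Tetramer library 4 was higher than tetramer library 5 for 24 of the 34 members (70.6%), beside 50.1% of all genes tested. Without tetramer library 4, 0 members were called higher (edgeR, background 5.33%) and 0 lower (background 2.68%), with 4 and 0 at an unadjusted p under 0.05; other tools were not run on these 3 libraries. In the absence of resting library 4, 1 member was called higher (background 13.1%), Fh1, and 0 lower (edgeR, background 12.7%, with 1 at an unadjusted p under 0.05). With library totals in place of TMM factors, which moves the median of all genes to -0.35, 2 members were called higher, Sdhb and Cpt2 (background 10.5%), and 2 lower, Hadhb and Cpt1a (background 19.9%). The split of all genes was 1620 higher and 1366 lower with TMM scaling and 1193 and 2250 with library totals, so every direction here is relative to TMM scaling.

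**Figure D2:**
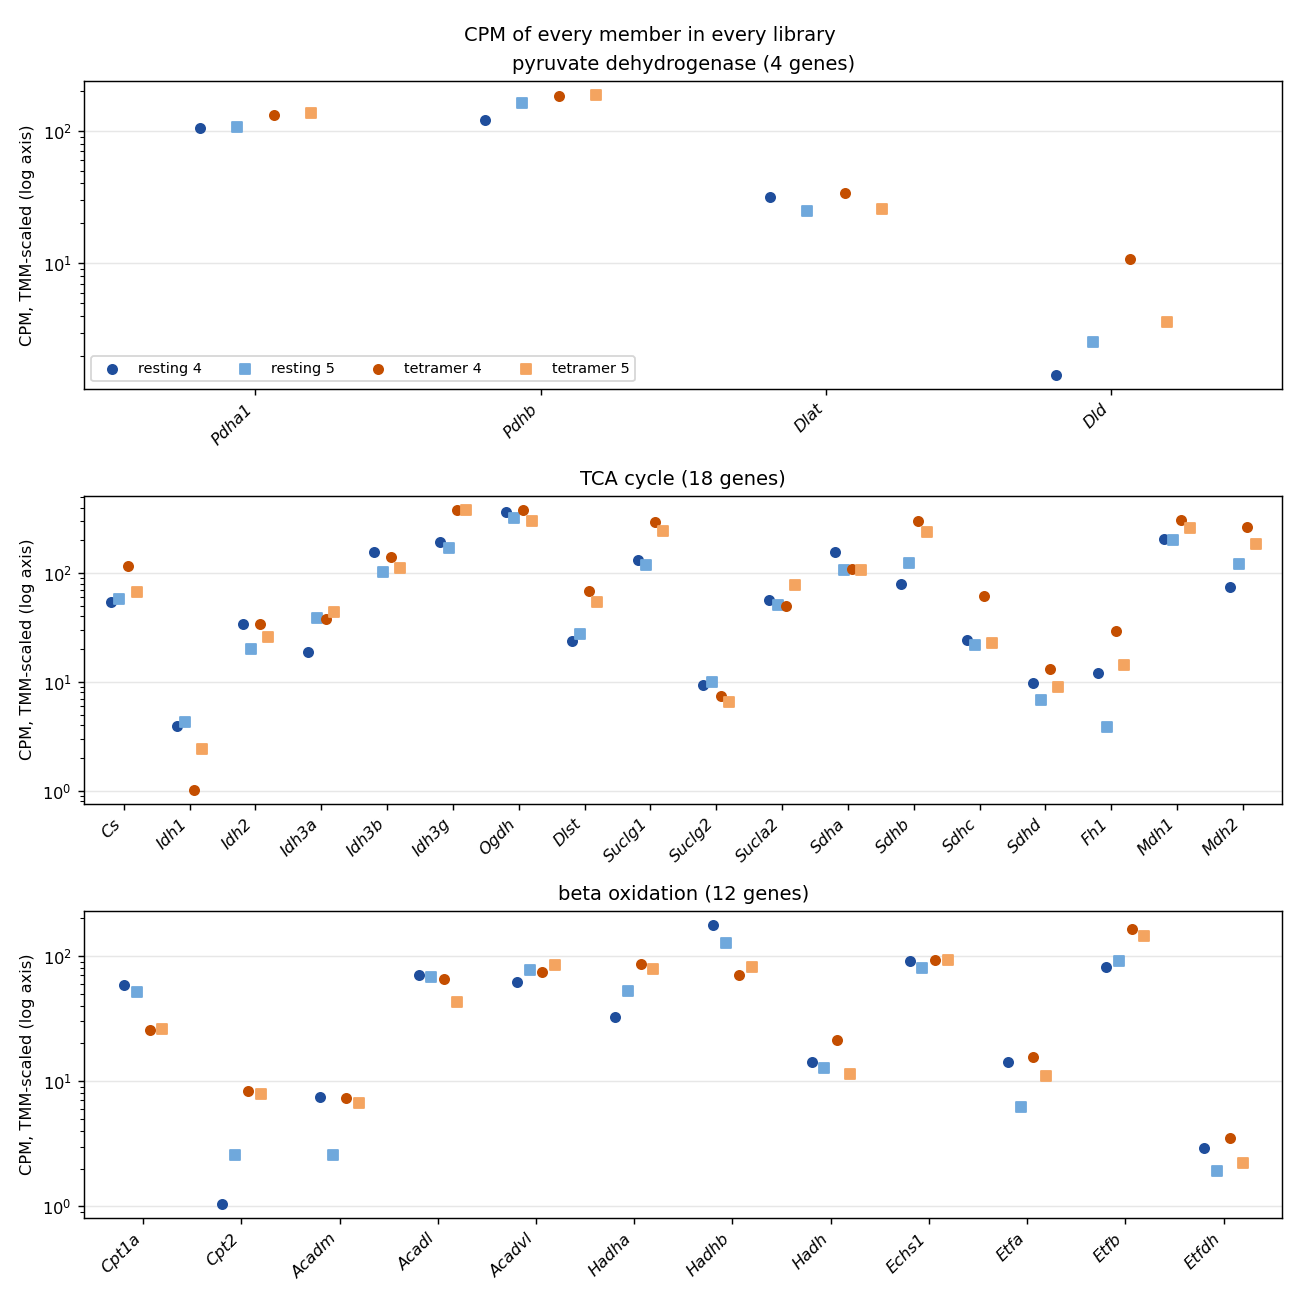
CPM (log axis) of each member in each of the 4 libraries, with resting libraries in blue and tetramer libraries in orange, circles for library 4 and squares for library 5. Sdhb, Suclg1 and Mdh2 show both orange points well above both blue ones, while those of Ogdh, Idh3b and Echs1 lie close to the blue ones.

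Summed over its 18 members, the TCA cycle took 1613 and 1509 CPM in resting libraries 4 and 5, and 2601 and 2158 CPM in tetramer libraries 4 and 5, a ratio of means of 1.52. The 4 pyruvate dehydrogenase genes summed to 259 and 296 CPM at rest and 359 and 350 CPM after stimulation, a ratio of 1.28. For the 12 beta oxidation genes the sums were 612 and 574 CPM at rest and 634 and 589 CPM after stimulation, a ratio of 1.03. Sums of the first 2 groups therefore did not overlap between resting and stimulated cells, and those of beta oxidation did. No test was made of these sums, because the members were chosen with results known.

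**Figure D3:**
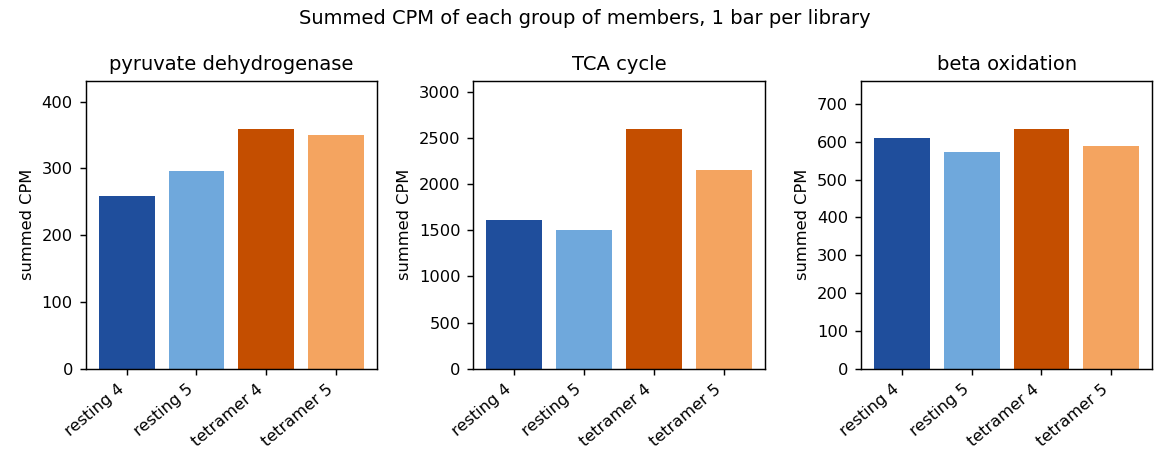
Summed CPM, after TMM scaling, of the members of each group, with 1 bar for each library and every axis starting at 0. TCA cycle sums are 1613 and 1509 CPM at rest and 2601 and 2158 CPM after stimulation, whereas beta oxidation sums stay between 574 and 634 CPM.

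Pyruvate dehydrogenase is built of a decarboxylase (Pdha1 and Pdhb), an acetyltransferase core (Dlat) and a dehydrogenase that reloads the lipoyl arms (Dld). Pdha1 stood at 105 and 106 CPM in resting libraries 4 and 5 and at 131 and 135 CPM in tetramer libraries 4 and 5. Its partner Pdhb stood at 120 and 162 CPM at rest and 183 and 185 CPM after stimulation. Tetramer values were above resting ones for both subunits, with log2 fold changes of 0.33 ± 0.36 and 0.39 ± 0.36 (SE) that the test did not call (edgeR adjusted p = 0.528 and 0.451). Dlat had 31.9 and 25.0 CPM at rest against 34.2 and 25.7 CPM, and the groups overlapped. Dld, which also serves the oxoglutarate dehydrogenase complex, was low, with 7 and 12 counts at rest and 53 and 18 counts after stimulation. Its log2 fold change of 1.84 ± 0.71 was the largest of the group and just missed the threshold (edgeR adjusted p = 0.0558). It was called without resting library 5 (2.32, adjusted p = 0.0255), and was 1.5 (0.123) without resting library 4, 0.87 (0.717) without tetramer library 4 and 2.43 (0.0688) without tetramer library 5.

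Among genes that control the entry of pyruvate, the kinases of the complex changed in opposite directions. Of 14 genes listed, 12 were tested, 1 was called higher (8.33%, beside 14.3% of all genes) and 2 lower (16.7%, beside 12.1%), with a median log2 fold change of 0.12. All 3 were pyruvate dehydrogenase kinases, which switch the complex off by phosphorylating Pdha1. Pdk1 fell from 110 and 83.8 CPM at rest to 26.6 and 24.1 CPM, or -1.93 ± 0.40 in log2 terms (edgeR adjusted p = 9.07e-04). Pdk2 fell from 27.6 and 25.9 CPM to 5.53 and 1.82 CPM, by -2.85 ± 0.58 (adjusted p = 7.80e-04). Pdk3 went the other way, from 19.5 and 13.9 CPM to 55.0 and 52.6 CPM, a rise of 1.69 ± 0.44 (adjusted p = 0.00571). In none of these kinases, named because they were called, did resting and tetramer libraries overlap. Among all genes tested, tetramer libraries lay wholly above for 31.6% and wholly below for 33.7%. Pdk1 and Pdk2 stayed called in all 12 alternatives, although the log2 fold change of Pdk2 was -3.84 without tetramer library 4 and -2.26 without tetramer library 5. The call of Pdk3 was lost without tetramer library 4 (adjusted p = 0.0622). Reads of Pdk3 were 0.178 and 0.166 of those of Pdk1 at rest, and 2.07 and 2.18 times those of Pdk1 after stimulation. Pdk4 stayed at 3.11 and 3.42 against 2.46 and 3.03 CPM and was not called. The mitochondrial pyruvate carrier genes Mpc1 and Mpc2 had log2 fold changes of 0.37 ± 0.44 and 0.01 ± 0.36, neither called, and Pdhx, which anchors Dld to the core, had 0.22 ± 0.50.

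In the TCA cycle, entry begins with citrate synthase. Cs was at 54.1 and 57.3 CPM at rest and 115 and 67.4 CPM after stimulation, with tetramer library 4 standing higher than the other 3, and was not called (0.71 ± 0.39, edgeR adjusted p = 0.176, and 0.29 without tetramer library 4). Isocitrate dehydrogenase linked to NAD has a catalytic subunit, Idh3a, and regulatory subunits, Idh3b and Idh3g. Idh3g rose from 192 and 170 CPM to 378 and 381 CPM, by 1.07 ± 0.36 on the log2 scale (edgeR adjusted p = 0.0294). Idh3b did not follow, at 158 and 102 against 142 and 112 CPM, and Idh3a was at 18.6 and 38.5 against 38.3 and 43.9 CPM. Resting and tetramer libraries overlapped for these latter subunits and were far apart for Idh3g. Leaving out resting library 4 or 5 raised the adjusted p of Idh3g to 0.0633 or 0.113, and leaving out tetramer library 4 or 5 raised it to 0.163 or 0.120, while its log2 fold change kept between 1.01 and 1.17.

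Isocitrate dehydrogenases linked to NADP, cytosolic Idh1 and mitochondrial Idh2, were not called. Idh1 was scarce, with 19 and 20 counts at rest and 5 and 12 counts after stimulation (-1.24 ± 0.70, edgeR adjusted p = 0.192). Its log2 fold change was -0.73 without tetramer library 4 and -1.97 without tetramer library 5. Idh2 held at 34.0 and 19.9 against 34.0 and 25.9 CPM.

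Oxoglutarate dehydrogenase joins a decarboxylase, Ogdh, to a succinyltransferase core, Dlst. Dlst rose from 23.8 and 27.6 CPM to 68.1 and 53.8 CPM, by 1.25 ± 0.42 on the log2 scale (edgeR adjusted p = 0.0272). Ogdh was at 366 and 324 CPM at rest and 382 and 304 CPM after stimulation, so that the groups overlapped fully (-0.01 ± 0.36). Reads of Dlst were 0.0650 and 0.085 of those of Ogdh at rest and 0.178 and 0.177 after stimulation. Dlst was no longer called when resting library 4, tetramer library 4 or tetramer library 5 was left out (0.0798, 0.270 and 0.0688).

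Succinyl-CoA ligase pairs a common subunit, Suclg1, with a subunit for GTP, Suclg2, or for ATP, Sucla2. Suclg1 rose from 131 and 120 CPM to 297 and 245 CPM, by 1.11 ± 0.36 on the log2 scale (edgeR adjusted p = 0.0246). Neither of its alternative partners was called: Suclg2 had 9.32 and 10.0 against 7.37 and 6.47 CPM, and Sucla2 had 56.4 and 50.6 against 50.1 and 77.3 CPM. Suclg2 thus lay lower in both tetramer libraries, whereas Sucla2 overlapped. The call of Suclg1 ended when any single library was left out, with adjusted p of 0.0576 and 0.0868 without resting libraries 4 and 5 and 0.230 and 0.0587 without tetramer libraries 4 and 5.

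Succinate dehydrogenase is both a TCA cycle enzyme and complex II of the respiratory chain, with a flavoprotein (Sdha), an iron-sulphur subunit (Sdhb) and a pair of membrane anchors (Sdhc and Sdhd). Sdhb rose from 80.0 and 124 CPM to 300 and 238 CPM, by 1.40 ± 0.38 on the log2 scale (edgeR adjusted p = 0.00747), the smallest adjusted p of the 34 members. Sdha was at 158 and 108 CPM at rest and 110 and 108 CPM after stimulation and was not called (-0.29 ± 0.37). Reads of Sdhb were 0.506 and 1.151 times those of Sdha at rest and 2.73 and 2.21 times after stimulation. Sdhc was high in tetramer library 4 alone (61.6 CPM, against 22.9 in tetramer library 5 and 24.0 and 21.8 at rest), and its log2 fold change of 0.88 became 0.01 without that library. Sdhd lay at 9.74 and 6.84 against 13.1 and 8.90 CPM, and assembly factors Sdhaf1, Sdhaf2 and Sdhaf3 were not called, at 0.58 to 0.76 on the log2 scale. For Sdhb the adjusted p was 0.0714 in the absence of resting library 4 and 0.105 in the absence of tetramer library 4, and the call ended in both cases.

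The cycle closes with fumarase (Fh1) and malate dehydrogenase (mitochondrial Mdh2, with Mdh1 in the cytosol). Mdh2 rose from 74.6 and 121 CPM to 267 and 186 CPM, by 1.22 ± 0.38 on the log2 scale (edgeR adjusted p = 0.0192). That call ended when resting library 4 (0.144) or tetramer library 4 (0.255) was left out. Mdh1 had 208 and 200 CPM at rest and 307 and 260 CPM after stimulation (0.48 ± 0.36, adjusted p = 0.341). Both tetramer libraries exceeded both resting ones for either enzyme. Fh1 had 58 and 18 counts at rest and 144 and 71 counts after stimulation, a log2 fold change of 1.46 ± 0.57 with an adjusted p of 0.0590. It was called when resting library 4 (2.52, with 0.00197) or tetramer library 5 (1.90, with 0.0482) was left out. With resting library 5 or tetramer library 4 left out the log2 fold change of Fh1 was 0.89 (0.265) or 0.87 (0.571).

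Count ratios between partner genes do not depend on the scaling of libraries. Of 10 pairs, 3 were set down in the plan (Idh1 with Idh2, Suclg2 with Sucla2, Mdh1 with Mdh2) and 7 were added after values were seen. With 2 libraries against 2, the exact two-sided permutation test cannot go below p = 0.3333, which it gave for each of the 10 pairs (0.3333 also after Benjamini-Hochberg adjustment), so the ratios are given as a description. Reads of Mdh1 were 2.79 and 1.66 times those of Mdh2 at rest and 1.147 and 1.397 times after stimulation. The ratio of Idh1 to Idh2 was 0.116 and 0.215 at rest and 0.0301 and 0.0938 after stimulation, and that of Idh3g to Idh3b 1.22 and 1.67 against 2.65 and 3.40. Resting and tetramer ratios did not overlap in any of these pairs, and how often this happens among other gene pairs was not measured.

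**Figure D4:**
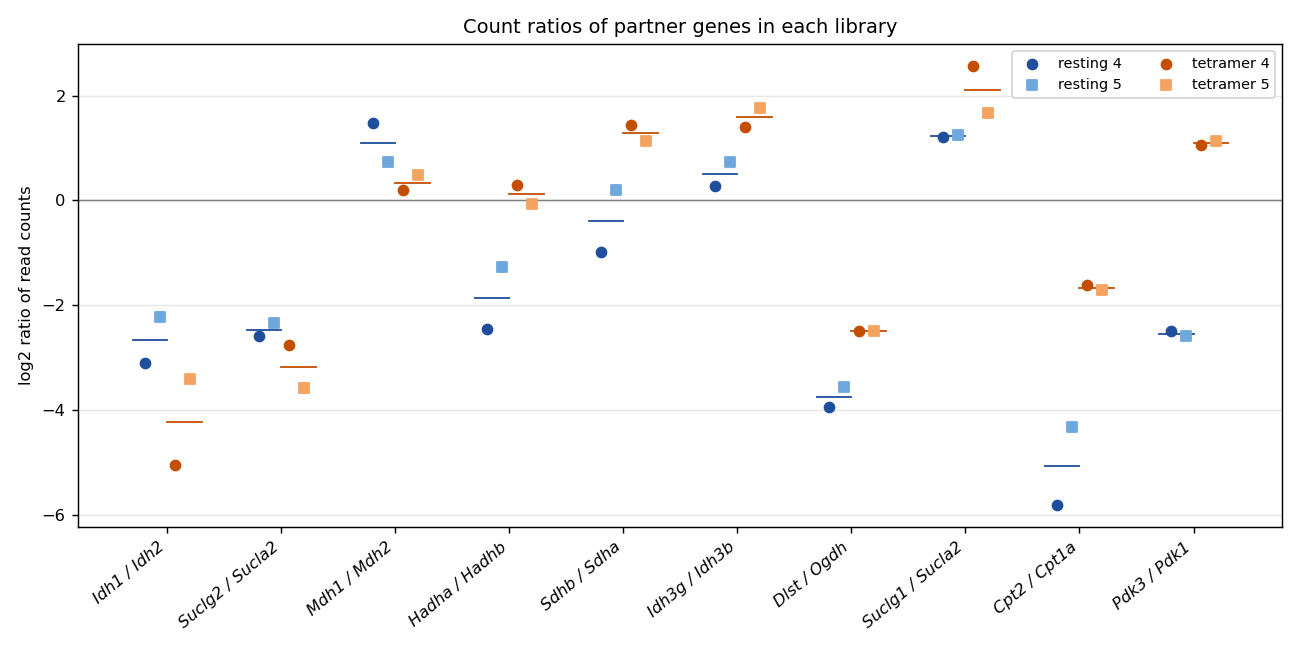
Log2 ratio of the read counts of 2 partner genes in each library, for 10 pairs, with lines at the mean of each group. For Hadha over Hadhb the means are -1.87 at rest and 0.12 after stimulation, and for Pdk3 over Pdk1 they are -2.54 and 1.09.

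Promoter windows were read from RefSeq (build GRCm38.p6, 250 bases before to 50 after each start) for 32 of the 34 members, Idh3a and Sdhc having none. Of 5 motifs searched on both strands, CCGGAAG, the core bound by ETS factors, was held by 6 members, an NRF1-type site (GCGC, any 2 bases, GCGC) by 6, AAGGTCA (a nuclear receptor core) by 3, CACGTG (the E-box) by 1 and CCAAT by 17. Among all 32544 RefSeq windows, each counted singly, these letters were present in 8.91%, 6.27%, 4.71%, 7.17% and 37.4%. Members were counted by gene, with a match in any window enough, and some, such as Ogdh, have several windows. The windows were also not limited to the genes tested here. The member counts and these shares are therefore not directly comparable. The search was made with the calls known, and matches are a description. Each motif was searched by itself, so matches of different motifs may overlap. The NRF1-type site was held by Dld, Etfb, Etfdh, Sdha, Sdhd and Sucla2, none of them called higher. Among the members called higher, Sdhb alone held CCAAT, and none held the E-box or the nuclear receptor core. No split of a motif by call was tested. CCGGAAG was present in the windows of 4 of the 6 members that rose, Idh3g, Dlst, Sdhb and Cpt2, and of 2 of the other 26, Idh3b and Sdhd. The windows of these 4 are printed 5′ to 3′ on the gene's strand, because they are the members that rose and share the motif, with CCGGAAG or its complement CTTCCGG in capitals.
Idh3g (chrX:73786848-73787147, minus strand): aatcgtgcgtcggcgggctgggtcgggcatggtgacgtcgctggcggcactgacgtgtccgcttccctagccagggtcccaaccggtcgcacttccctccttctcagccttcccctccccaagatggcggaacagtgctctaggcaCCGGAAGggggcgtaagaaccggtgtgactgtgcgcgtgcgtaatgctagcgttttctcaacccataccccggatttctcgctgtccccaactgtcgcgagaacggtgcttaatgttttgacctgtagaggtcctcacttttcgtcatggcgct
Dlst (chr12:85110583-85110882, plus strand): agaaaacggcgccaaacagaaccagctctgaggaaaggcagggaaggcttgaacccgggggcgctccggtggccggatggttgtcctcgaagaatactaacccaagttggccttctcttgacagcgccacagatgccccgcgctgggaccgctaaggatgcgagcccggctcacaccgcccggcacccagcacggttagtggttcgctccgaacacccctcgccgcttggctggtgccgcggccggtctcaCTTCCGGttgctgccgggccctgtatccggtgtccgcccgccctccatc
Sdhb (chr4:140961021-140961320, plus strand): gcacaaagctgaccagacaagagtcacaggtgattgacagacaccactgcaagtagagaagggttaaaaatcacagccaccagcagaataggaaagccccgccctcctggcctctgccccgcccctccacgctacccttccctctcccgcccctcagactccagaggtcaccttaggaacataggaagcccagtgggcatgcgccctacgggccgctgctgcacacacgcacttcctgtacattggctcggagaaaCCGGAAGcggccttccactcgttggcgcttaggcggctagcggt
Cpt2 (chr4:107923540-107923839, minus strand): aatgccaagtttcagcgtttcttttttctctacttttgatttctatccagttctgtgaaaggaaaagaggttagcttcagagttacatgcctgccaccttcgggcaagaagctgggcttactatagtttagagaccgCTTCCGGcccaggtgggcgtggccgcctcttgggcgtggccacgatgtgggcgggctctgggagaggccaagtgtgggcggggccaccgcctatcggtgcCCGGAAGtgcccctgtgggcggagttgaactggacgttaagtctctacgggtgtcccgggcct
The match begins 1 base past the annotated start position in Dlst and 6 bases past it in Sdhb, and 104 bases before it in Idh3g. Cpt2 has 2 matches, beginning 113 and 13 bases before the start.

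Beta oxidation begins with the carnitine shuttle. Cpt1a, the outer membrane carnitine palmitoyltransferase and the controlled step of fatty acid entry, was at 58.0 and 51.3 CPM at rest and 25.8 and 25.9 CPM after stimulation. Both tetramer libraries lay below both resting ones, and the log2 fold change of -1.08 ± 0.42 just missed the threshold (edgeR adjusted p = 0.0543). It was called lower by DESeq2 (adjusted p = 0.0426), with library totals (0.0150) and among genes of at least 10 CPM (0.0493). It was not called with any single library left out (0.0655 to 0.308), by limma-voom (0.0570) or against a fold of 1.5 (0.152). Cpt2, its inner membrane counterpart that returns the acyl group to CoA, rose from 5 and 12 counts to 41 and 39 counts, by 2.16 ± 0.70 on the log2 scale (edgeR adjusted p = 0.0224). The rise of Cpt2 was not called without resting library 4 (1.67, with 0.0842), tetramer library 4 (2.14, with 0.198) or tetramer library 5 (2.21, with 0.127), and it was 2.97 without resting library 5. Reads of Cpt2 were 0.0179 and 0.05 of those of Cpt1a at rest and 0.325 and 0.305 after stimulation.

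Acyl-CoA dehydrogenases carry out the first oxidation of chains of medium (Acadm), long (Acadl) and very long (Acadvl) length, and none was called. Acadl stood at 70.6 and 68.2 against 65.5 and 42.9 CPM, and Acadvl at 61.5 and 77.1 against 74.5 and 84.8 CPM. Acadm was low and uneven at rest, with 36 and 12 counts against 36 and 33 after stimulation. Log2 fold changes were -0.36 ± 0.39, 0.20 ± 0.38 and 0.48 ± 0.65 for these genes in that order. They pass electrons to the flavoprotein of Etfa and Etfb and on to Etfdh. Etfb was at 81.2 and 91.5 CPM at rest and 163 and 143 CPM after stimulation, a log2 fold change of 0.82 ± 0.36 that was not called (edgeR adjusted p = 0.0912). Its partner Etfa overlapped between groups, at 14.1 and 6.20 against 15.6 and 10.9 CPM, and so did Etfdh, with 14 and 9 against 17 and 11 counts.

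The mitochondrial trifunctional protein, which carries out the later steps on long chains, is made of an alpha subunit, Hadha, and a beta subunit with the thiolase, Hadhb. Hadhb fell from 178 and 128 CPM to 70.4 and 82.1 CPM, or -1.0 ± 0.37 in log2 terms (edgeR adjusted p = 0.0451). Hadha had 32.3 and 52.8 CPM at rest and 86.6 and 78.3 CPM after stimulation, 0.95 ± 0.40 on the log2 scale (adjusted p = 0.0745), and was called higher without resting library 5 (1.37, adjusted p = 0.0292). Hadha was not called without resting library 4 (0.66, with 0.325), tetramer library 4 (0.90, with 0.343) or tetramer library 5 (1.03, with 0.184). Resting and tetramer libraries did not overlap for either subunit, with the tetramer libraries above for Hadha and below for Hadhb. Reads of Hadha were 0.182 and 0.414 of those of Hadhb at rest, and 1.23 and 0.953 times those of Hadhb after stimulation. Hadhb was not called lower when resting library 4 (-0.73, with 0.234), tetramer library 4 (-0.88, with 0.348) or tetramer library 5 (-1.11, with 0.148) was left out. It also missed by limma-voom (adjusted p = 0.0509), with no filter on low counts (0.0511) and against a fold of 1.5 (0.159). The remaining members of the pathway, the hydratase Echs1 and the short-chain dehydrogenase Hadh, had log2 fold changes of 0.13 ± 0.37 and 0.27 ± 0.52 and were not called.

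Hadha and Hadhb lie head to head, which is why their windows are shown. In RefSeq their start sites are 273 bases apart on opposite strands, and the promoter windows share 228 bases, printed in capitals, each sequence 5′ to 3′ on its own gene's strand. Neither window held any of the 5 motifs.
Hadha (chr5:30154931-30155230, minus strand): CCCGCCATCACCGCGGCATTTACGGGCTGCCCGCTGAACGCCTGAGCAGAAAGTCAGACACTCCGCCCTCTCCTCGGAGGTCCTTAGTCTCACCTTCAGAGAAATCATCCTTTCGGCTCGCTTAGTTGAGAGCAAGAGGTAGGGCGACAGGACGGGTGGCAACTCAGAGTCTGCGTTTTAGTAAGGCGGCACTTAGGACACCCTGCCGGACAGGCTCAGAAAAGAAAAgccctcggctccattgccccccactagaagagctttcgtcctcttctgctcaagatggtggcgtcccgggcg
Hadhb (chr5:30155003-30155302, plus strand): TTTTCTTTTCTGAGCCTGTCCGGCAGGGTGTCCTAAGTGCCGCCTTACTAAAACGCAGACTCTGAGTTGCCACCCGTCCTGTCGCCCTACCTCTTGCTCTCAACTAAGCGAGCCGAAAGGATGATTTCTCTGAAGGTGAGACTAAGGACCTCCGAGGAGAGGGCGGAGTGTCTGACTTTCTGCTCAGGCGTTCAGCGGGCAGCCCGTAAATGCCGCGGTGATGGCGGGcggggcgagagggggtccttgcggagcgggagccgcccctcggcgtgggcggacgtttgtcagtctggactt
The annotated transcripts run away from each other, and the shared bases lie between the start sites, upstream of both genes.

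Other genes of these pathways, taken from lists written down with the plan, are given by count. Of 26 genes that complete or feed the TCA cycle, 22 were tested, 4 were called higher (18.2%, beside 14.3% of all genes) and 1 lower (4.55%, beside 12.1%), with a median log2 fold change of 0.71. Gpt2, an alanine transaminase that yields oxoglutarate, had 2 and 3 counts at rest and 24 in each tetramer library, a scaled ratio of 9.30 (95% Clopper-Pearson interval 3.72 to 29.9, for counting error only). Slc25a1, which exports citrate from the mitochondrion, rose from 3.32 and 4.70 to 29.1 and 13.7 CPM. Aspartate transaminases rose too: Got2, the mitochondrial form, from 38.1 and 30.3 to 144 and 114 CPM, and Got1, the cytosolic form, from 29.4 and 18.8 to 71.2 and 55.4 CPM. Both are named after their values were seen. Pck2, which withdraws oxaloacetate as phosphoenolpyruvate, fell from 68.8 and 81.2 to 13.5 and 16.2 CPM (-2.33 ± 0.43, edgeR adjusted p = 2.62e-04). Resting and tetramer libraries did not overlap in any of these 5 genes, which were named because they were called. Among all genes tested, 31.6% lay wholly above and 33.7% wholly below. Got2 and Pck2 stayed called in all 12 alternatives. Without tetramer library 4 the calls of Gpt2 (edgeR adjusted p = 0.0995), Slc25a1 (0.199, with a log2 fold change of 1.79 in place of 2.41) and Got1 (0.199) were lost. The call of Gpt2 was also lost without tetramer library 5 (0.0684) and that of Got1 without resting library 5 (0.0834).

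Of 14 genes of fatty acid activation and the carnitine shuttle, 11 were tested, 2 were called higher (18.2%, beside 14.3% of all genes) and 1 lower (9.09%, beside 12.1%), with a median of 0.47. Acacb, the other acetyl-CoA carboxylase listed, was not found in the deposited table. Acaca, an acetyl-CoA carboxylase, makes malonyl-CoA, which can block carnitine palmitoyltransferase at the outer membrane. It rose from 10.4 and 5.77 CPM to 45.8 and 33.0 CPM (2.28 ± 0.50, edgeR adjusted p = 0.00148) and stayed called in all 12 alternatives. Acsl5, which activates long-chain fatty acids, rose from 16.6 and 19.4 to 49.7 and 35.8 CPM, and Crot, the carnitine octanoyltransferase of peroxisomes, fell from 82.5 and 72.7 to 28.4 and 28.3 CPM. Acsl5 was not called without resting library 4 (edgeR adjusted p = 0.0953), tetramer library 4 (0.366) or tetramer library 5 (0.0800), nor Crot without tetramer library 4 (0.121) or 5 (0.0755). Mlycd, which breaks down malonyl-CoA, stood at 111 and 127 against 56.5 and 88.2 CPM and was not called. For Acaca tetramer libraries lay above, and for Mlycd below, both resting libraries. Malonyl-CoA and fatty acid entry were not measured.

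Of 22 further oxidation enzymes, 16 were tested. By edgeR, DESeq2 or limma-voom 0 were called higher (0 at an unadjusted p under 0.05), where edgeR called 14.3% of all genes. Called lower were 2 (12.5%, beside 12.1% of all genes), with a median of -0.37 and 4 of 16 above 0. Decr2, the peroxisomal dienoyl-CoA reductase, fell from 96.5 and 136 to 34.0 and 51.6 CPM, by -1.44 ± 0.39. Acad10, an acyl-CoA dehydrogenase family member, fell from 56 and 20 counts to 5 and 6 counts, by -2.80 ± 0.75. The calls of both were lost without tetramer library 4 (edgeR adjusted p = 0.198 and 0.140), and that of Acad10 without tetramer library 5 (0.0739), while its log2 fold change was -1.90 without resting library 4.

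Of 18 regulators, 14 were tested, 1 was called higher (7.14%, beside 14.3% of all genes) and 2 lower (14.3%, beside 12.1%), with a median of 0.04. Myc, a transcription factor of growth, rose from 5 and 3 counts to 41 and 11 counts (2.62 ± 0.80, edgeR adjusted p = 0.0163), with tetramer library 4 far above 5. It was not called by limma-voom (adjusted p = 0.0511) and could not be tested without tetramer library 4 because it then fell under the expression filter. Prkaa1, the catalytic alpha subunit of AMP-activated kinase, fell from 42.9 and 30.3 to 13.9 and 15.4 CPM, and Mlxip, a glucose-sensing factor, fell from 47.4 and 44.9 to 21.9 and 19.8 CPM. The call of Prkaa1 was lost without resting library 4, tetramer library 4 or tetramer library 5 (adjusted p = 0.131, 0.270 and 0.153), and that of Mlxip without any single library (0.0703 to 0.255). Mlxip also missed with DESeq2 size factors (0.0526), limma-voom (0.0505), no filter on low counts (0.0514) and a fold of 1.5 (0.133), and Prkaa1 with a fold of 1.5 (0.0937). Factors known for mitochondrial biogenesis were not called: Tfam had a log2 fold change of -0.03 ± 0.36, Nrf1 of -0.19 ± 0.51, Esrra of 0.15 ± 0.45, Ppargc1b of 0.31 ± 0.58, Gabpb1 of 0.52 ± 0.43, Gabpa of 0.57 ± 0.54 and Pprc1 of 0.93 ± 0.50. Tetramer libraries lay above both resting ones for Ppargc1b, Gabpa and Pprc1, below them for Nrf1, and overlapped them for the other genes. Ppargc1a, with 6 and 28 counts at rest and 9 and 10 counts after stimulation, fell under the expression filter and was not tested.

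**Figure D5:**
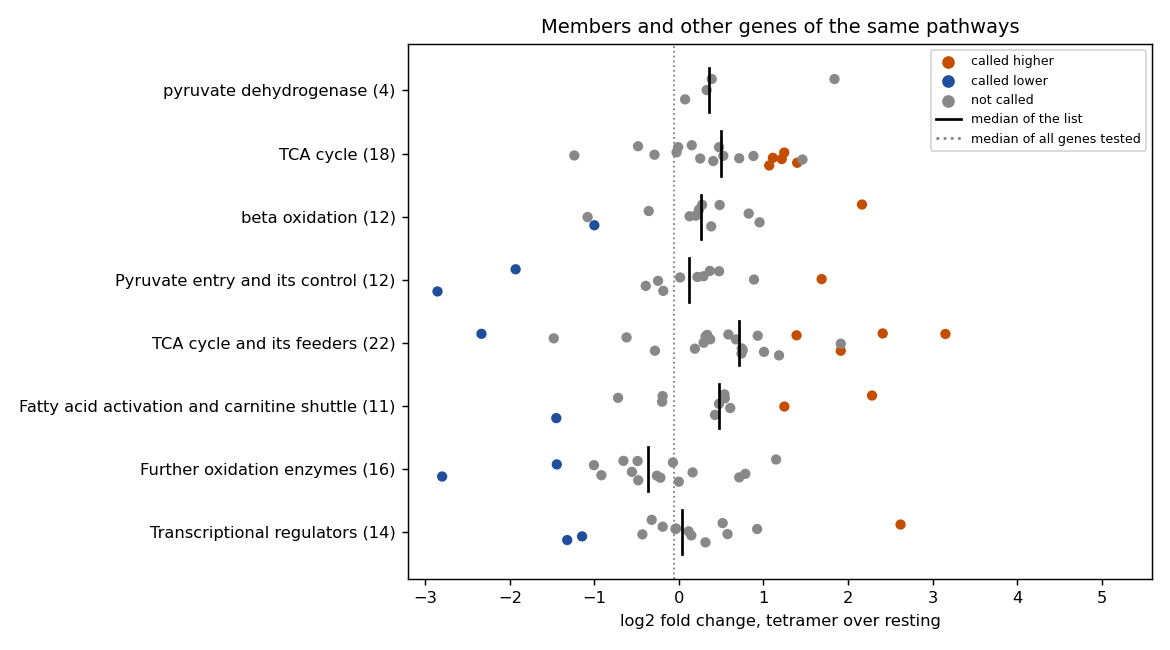
Log2 fold change, tetramer against resting, for the genes tested in the 3 groups of members and 5 lists of other pathway genes, with the number tested in parentheses, a black bar at each median and a dotted line at the median of all genes. The median of the TCA cycle and its feeders is 0.71 and that of further oxidation enzymes -0.37, and the 2 lowest points of pyruvate entry are Pdk2 and Pdk1.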

How the data were processed

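Whole-number read counts per gene symbol were used as deposited by the authors, in 1 table of 4 libraries, 2 resting and 2 tetramer. Per the submitters' processing notes, Bowtie2, DESeq2 and mouse build mm9 were used, with no versions. The counting tool, its annotation and its use of strand were not given in the sources used here. Per the labels' protocols, polyadenylated RNA was amplified with 23 cycles of PCR to fragments of 200 to 400 nt, and RNA extraction is described for islets. Column names gave the group and a number (4 or 5) that is not the replicate number of the titles. The table holds 12021 genes and no count below 1. The row of Tmem138 has a cell that is no number and was left out.

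The test of these counts was that of edgeR 4.0.16, run in R 4.3.3 (default expression filter, TMM scaling, quasi-likelihood F test, no covariate), which left 11312 genes. The fit was tested on simulated data. Standard errors come from the F statistic. Alternatives were other size factors, library totals, DESeq2 1.42.0, limma-voom (limma 3.58.1), a test against a fold of 1.5, other filters, single libraries left out (a lone library being assumed to vary like the other group) and a block on the column number. The labels do not say whether libraries of a group are from different mice; the p-values cover only the variation among the 4 libraries, possibly technical. Members, lists and tests were chosen with earlier results of these data known. All members are described, and from each list of other pathway genes up to 3 called genes with the largest change are named. No set test was made.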

Additional observations from a re-analysis of the deposited data

How the results depend on the processing

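With single libraries left out, members called higher ranged from 0 to 6 and members called lower from 0 to 1, against 6 and 1. The ranges were 0 to 3 higher in the TCA cycle, 0 to 1 higher in pyruvate dehydrogenase, and 0 to 2 higher and 0 to 1 lower in beta oxidation. Over all genes they were 622 to 1629 higher and 313 to 1488 lower. None of the 7 called members stayed called under every omission, and none changed sign. With library totals 2 members were higher and 2 lower (TCA cycle 1 higher, beta oxidation 2 lower), and 2250 of all genes were lower. Against a fold of 1.5, 2 members were higher and 0 lower (TCA cycle 1 higher, beta oxidation 0 lower), with 785 of all genes lower. DESeq2 called 2 members lower, both of beta oxidation, limma-voom 0, the unfiltered fit 0 and the stricter filter 2 lower and 0 higher in beta oxidation; under that filter 7 members, Cpt2 among them, were not tested.

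No sample pairing was found: the deviations of the same-numbered libraries correlated at 0.0486 across genes, for a single pair of differences. In the fit with the replicate block on the column number, 0 members were called lower (0 in beta oxidation), because Hadhb was not called (adjusted p = 0.0728). Idh3g was not called either (0.0621) and Fh1 was called higher (1.57, adjusted p = 0.0163).

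Signs turned for members that were not called. With library totals log2 fold changes were -0.23 (Dlat), -0.16 (Idh2), -0.04 (Sucla2), -0.09 (Acadvl), -0.03 (Hadh), -0.17 (Echs1) and -0.07 (Etfdh). With DESeq2 and with its size factors that of Ogdh was 0.01. With single libraries left out the ranges crossed 0 for Dlat (-0.13 to 0.27), Idh2 (-0.16 to 0.61), Idh3b (-0.29 to 0.34), Ogdh (-0.17 to 0.15), Sucla2 (-0.09 to 0.55), Sdha (-0.52 to 0.03), Acadm (-0.06 to 1.46), Hadh (-0.24 to 0.67), Etfa (-0.07 to 1.11) and Etfdh (-0.10 to 0.58). The cause of these sign changes was not tested. Dld, Idh1, Cpt2, Acadm and Etfdh had few reads; what part depth had in their spread was not tested.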

Other observations

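Genes on side branches of the cycle were measured at low levels, and none of those given here was called by edgeR. Irg1, which makes itaconate from a cycle intermediate in activated macrophages, had 22 and 9 counts at rest and 19 and 54 counts after stimulation. D2hgdh, a hydroxyglutarate dehydrogenase, had 83 and 48 counts at rest and 27 and 61 counts after stimulation. The groups overlapped for both genes. Nnt, which makes mitochondrial NADPH, had 16 and 13 counts at rest and 21 and 27 counts after stimulation.

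Acly, which splits exported citrate into acetyl-CoA for lipid synthesis, was at 30.9 and 51.7 CPM at rest and 87.4 and 78.5 CPM after stimulation, without passing the threshold (log2 fold change 1.01 ± 0.40). Glud1, which feeds glutamate into the cycle, was at 101 and 76.3 against 197 and 141 CPM, also not called (0.93 ± 0.37). In both, the tetramer libraries lay above the resting ones.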
